A study of Mus musculus with 31 samples.

Results

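The mitosis and G2 genes described here are 40 genes listed by name for their part in entry into and passage through cell division, of 18193 genes with a probe set of their own in these data. Each gene was read by 1 probe set, the one of highest mean log2(value + 1) over all 31 arrays. No probe set in the annotation used here names Ccnb1 (cyclin B1), alone or with other genes, so its RNA was not analysed here. In all, 39 genes were measured, and all 39 passed the filter on low values. The samples came from C57BL/6 mice with both copies of NDR1, a protein kinase encoded by Stk38 (WT), with 1 mutant copy (HT, +/-) or with no intact copy (KO, -/-), and their RNA was hybridised to Affymetrix mouse expression arrays. There were 4 untreated thymi per genotype, 2 female and 2 male. The sample titles call them thymocytes, and call the tumor samples tumor cells. The 19 thymic tumors had been induced with N-ethyl-N-nitrosourea (ENU, an alkylating mutagen) at 100 mg/kg and were collected when a tumor developed or 9 months after ENU. By sex of the source, the tumor samples were 5 WT female, 6 HT female, 1 HT male, 6 KO female and 1 KO male. The sources used here do not give the age of the untreated mice or the design of the mutant allele. No array of ENU-treated thymus without a tumor was analysed here, so tumor growth, ENU and time since treatment cannot be told apart in any comparison of tumors with thymi.

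Dividing cells build up the products of these genes in late S phase and G2 and destroy many of them at the end of mitosis. Cyclin A2 and the B cyclins bind the kinase CDK1, and the phosphatase encoded by Cdc25c removes the inhibitory phosphates from CDK1, which starts mitosis. Polo-like, Aurora and NEK kinases then build the spindle, the checkpoint proteins hold anaphase until each kinetochore is attached, and the anaphase-promoting complex ends mitosis by marking securin and the cyclins for destruction. In many of their promoters a cell cycle genes homology region (CHR, TTTGAA) lies close to the start site and binds the MuvB core. That core represses with the DREAM complex in resting cells and activates with B-Myb and FOXM1 in G2. In the thymus, most dividing cells are immature thymocytes.

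All values below are log2(intensity + 1), and a difference of 1 is a 2-fold change. Every array had a median intensity of 20.00. In the thymi the targeted gene, Stk38, read 11.69 to 12.03 in WT, 11.33 to 11.58 in HT and 10.64 to 11.34 in KO on its brightest probe set. On dimmer probe sets the thymus ranges overlapped. A middle one read 8.54 to 9.16 in WT, 8.19 to 9.32 in HT and 8.75 to 9.50 in KO. The dimmest read 4.18 to 4.55, 4.23 to 4.40 and 4.05 to 4.39. In tumors the ranges of the brightest overlapped, from 11.38 to 13.04 in WT, 10.71 to 12.77 in HT and 8.73 to 13.08 in KO. The Stk38 signal thus does not tell the tumors' labelled genotypes apart. The sources used here do not say whether its probes lie in the deleted part. Markers of double-positive thymocytes, all 10 of them measured, had a mean of 12.65 to 12.80 in the thymi and 7.34 to 12.04 in the tumors. The log2 ratio of 3' to 5' signal of the actin and Gapdh control probes, a measure of RNA integrity, was 0.26 to 0.50 in thymi and 0.18 to 4.87 in tumors, and was above every thymus in 15 of 19 tumors. Of 12 B cell and plasma cell markers 10 were measured. Their mean was 6.64 to 8.01 in thymi, 5.47 to 10.72 in 15 tumors, and 13.28, 13.19, 13.08 and 11.94 in the tumors KO 06, KO 04, HT 01 and HT 03. All 10 of these markers were above every thymus in each of those 4 tumors. The labels do not say that each array came from a separate animal, so p-values measure the spread between these samples.

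The start-site sequences are shown first because they are what most of the members share outside their expression. RefSeq promoter windows (GRCm38.p6, 250 bases before to 50 after a start) were found for 34 of the 40 genes, as 36 windows. Aurkb, Foxm1, Ccna2, Kif20a, Tpx2 and Cdc25c had none in the table. On either strand, TTTGAA was in 26 of the 36 windows (72.2%), against 17.9% of all 32851 windows, 12.5% of those of genes tested on the array, 55.6% of the windows of other mitosis genes and 13.5% of those of DNA replication genes. It lay within 50 bases of the start in 66.7% of the members' windows, against 4.94% of all. For other mitosis genes this share was 43.1%, and for genes tested on the array 3.17%. The box bound by NF-Y, CCAAT, was in 75.0%, against 37.4% of all. It was in 66.7% of the windows of other mitosis genes and 54.1% of those of DNA replication genes. Both motifs together were in 63.9%, against 6.95% of all and 40.3% for other mitosis genes. The variant TTTAAA was in 27.8%, against 13.2% of all. The rarer variant TTCGAA was in 8.33%, against 1.56% of all and 9.72% for other mitosis genes. The TATA box, searched as TATAAA, was in 1 window (2.78%), against 13.6% of all and 8.03% for genes tested on the array. A match is a run of letters and not a measured binding site.

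In 24 members with a TTTGAA, the copy nearest the start read in the direction of the gene in 16, and began within 50 bases of the start in 22. Mki67 and Kif2c were the exceptions, at positions -98 and -103 from the start. The 30-base windows below are from members with a TTTGAA that the expression results turn on. Of the others that those results turn on, Nek2 held only CCAAT, Bub1 held CCAAT and TTCGAA, and Nusap1 held none of the 5 motifs. The windows are written in the direction in which the motif, in capitals, reads TTTGAA.
Ccnb2 (chr9:70421533-70421562, gene on the minus strand): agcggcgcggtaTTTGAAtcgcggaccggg
Ube2c (chr2:164769888-164769917, gene on the plus strand, motif on the opposite strand): ccgccgcccgcgTTTGAAttgcaaccctcc
Cenpa (chr5:30666890-30666919, gene on the plus strand): ggcgggtgatttTTTGAActgctggcgacc
Prc1 (chr7:80294434-80294463, gene on the plus strand): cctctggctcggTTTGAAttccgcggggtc
Ect2 (chr3:27153822-27153851, gene on the minus strand): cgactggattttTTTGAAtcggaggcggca
Kif11 (chr19:37376351-37376380, gene on the plus strand, motif on the opposite strand): ccgcgcctcaatTTTGAAaaatggagacga
Top2a (chr11:99024195-99024224, gene on the minus strand, motif on the opposite strand): tccctagtttcaTTTGAAcctttatctagc
Plk1 (chr7:122159453-122159482, gene on the plus strand): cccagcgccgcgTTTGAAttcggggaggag

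The 160 bases upstream of the start are shown for the cyclin B genes (Ccnb1 included, though its RNA was not measured), Cdk1, Plk1 and Pttg1, with CCAAT (read as ATTGG where it lies on the other strand) and the CHR letters in capitals.
Ccnb1 (chr13:100786487-100786646, minus strand): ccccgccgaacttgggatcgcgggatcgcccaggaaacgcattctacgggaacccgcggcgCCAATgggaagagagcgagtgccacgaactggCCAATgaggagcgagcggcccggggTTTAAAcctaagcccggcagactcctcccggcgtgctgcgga
Ccnb2 (chr9:70421555-70421714, minus strand): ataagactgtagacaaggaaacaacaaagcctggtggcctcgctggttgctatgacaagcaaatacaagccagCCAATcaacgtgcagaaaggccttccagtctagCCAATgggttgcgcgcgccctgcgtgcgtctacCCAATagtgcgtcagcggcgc
Cdk1 (chr10:69352913-69353072, minus strand): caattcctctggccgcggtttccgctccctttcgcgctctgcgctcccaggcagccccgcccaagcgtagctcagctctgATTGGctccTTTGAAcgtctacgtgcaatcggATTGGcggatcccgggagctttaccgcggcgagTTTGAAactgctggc
Plk1 (chr7:122159275-122159434, plus strand): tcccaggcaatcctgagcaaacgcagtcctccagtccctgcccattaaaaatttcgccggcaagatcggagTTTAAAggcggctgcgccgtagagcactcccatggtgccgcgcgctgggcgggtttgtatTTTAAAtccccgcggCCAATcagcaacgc
Pttg1 (chr11:43425982-43426141, minus strand): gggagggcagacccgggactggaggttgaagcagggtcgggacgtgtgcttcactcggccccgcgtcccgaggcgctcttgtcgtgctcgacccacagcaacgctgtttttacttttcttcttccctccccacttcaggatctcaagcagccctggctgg
Ccnb2 held 3 CCAAT boxes in this stretch and Cdk1 2 boxes with 2 CHR copies. The stretch of Pttg1 is printed because its expression ran against that of the other members, and was chosen after its values were seen. None of the 5 motifs was in its whole window, nor in those of Mad2l1, Nuf2 and Nusap1.

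**Figure D1:**
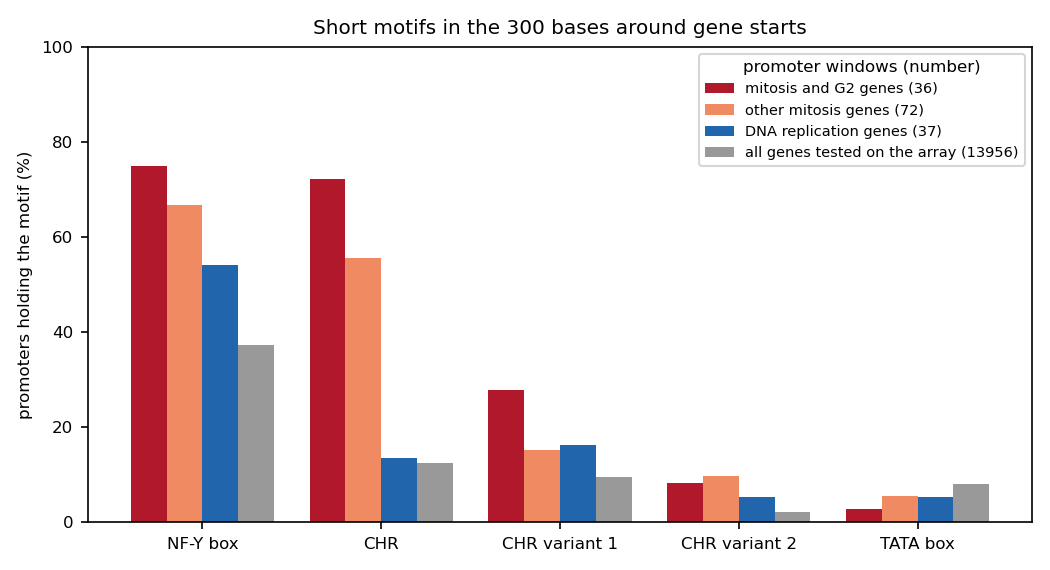
Share of promoter windows, in percent, that hold each of 5 short motifs on either strand, for 4 sets of genes; NF-Y box is the CCAAT motif, CHR is the TTTGAA motif, variants 1 and 2 are the TTTAAA and TTCGAA forms. The CHR was in 72.2% of the members' windows and in 12.5% of the windows of all genes tested on the array.

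In untreated thymus no member passed a test between genotypes. The comparison asks whether mitotic gene expression differs with NDR1 genotype in mice without tumors. In limma fits of the 12 thymi, 0 of 39 members passed an adjusted p of 0.05 in any pair of genotypes. Of 13644 genes, 0.191% passed between KO and WT, 0.022% between HT and WT and 0.0586% between KO and HT. At an unadjusted p under 0.05 the members in these 3 pairs numbered 0, 3 and 1, beside 689, 928 and 1158 of the 13644 genes. Their median differences were -0.03 (KO minus WT), -0.10 (HT minus WT) and 0.08 (KO minus HT), beside -0.01, 0.01 and -0.02 over all genes. The thymus numbers of the labels, used as a block, left all 3 counts at 0.

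The members of smallest p differed by 0.11 to 0.21. Kif11, the motor that slides spindle microtubules apart, read 11.19, 11.31, 11.07 and 11.27 in WT thymi, 10.96, 11.11, 11.01 and 10.93 in HT and 11.15, 11.33, 10.98 and 11.11 in KO. The HT and WT values overlapped, and HT minus WT was -0.21 (SE 0.08, adjusted p = 0.719). Nusap1, which binds and bundles spindle microtubules, read 12.32, 12.36, 12.37 and 12.72 in WT and 12.08, 12.21, 12.40 and 12.27 in HT, again overlapping, with a difference of -0.20 (SE 0.08, adjusted p = 0.721). For KO against WT the smallest p belonged to Spc25, a subunit of the NDC80 kinetochore complex. It read 11.31, 11.37, 11.50 and 11.68 in WT and 11.09, 11.36, 11.40 and 11.36 in KO, a difference of -0.16 (SE 0.08, adjusted p = 1.0). Plk4, the kinase of centriole duplication, came next at -0.11 (SE 0.08, adjusted p = 1.0). Its values were 11.51 to 11.61 in WT and 11.33 to 11.55 in KO. For KO against HT, Ect2 differed by 0.20 (SE 0.08, adjusted p = 0.556) and Racgap1 by 0.21 (SE 0.11, adjusted p = 0.655). Ect2 read 10.21, 10.35, 10.38 and 10.24 in KO thymi and 9.97, 10.03, 10.27 and 10.13 in HT.

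Tumors held, on average, less of 6 mitotic transcripts than thymi, and none was called higher in the fit of all 31 arrays. Cyclin B2, the ubiquitin-conjugating enzyme UBE2C, the centromeric histone CENP-A, the spindle midzone protein PRC1, NUSAP1 and the centrosome kinase NEK2 fell, by 0.81 to 1.36 on the log2 scale. In the fit of all 31 arrays 6 of 39 members (0 higher and 6 lower) passed, against 24.7% of all genes tested (11.9% higher and 12.8% lower). With 3374 of 13644 genes called in either direction, 6 of 39 is no larger a share than the background. For lower calls alone the background is 1753 of 13644 genes, and 6 of 39 lies near that share. The median over the members was -0.53, beside 0.05 over all genes, and 35 of 39 members had a negative difference. Without the 4 tumors of highest B cell marker mean the median was -0.27 and 7 members passed. The share of all genes passing in that refit is not given here, so this count has no background beside it. Foxm1 was then higher (0.79, SE 0.31, limma adjusted p = 0.0485), Pttg1 was lower (-0.75, SE 0.14, adjusted p = 0.000277) as were Ccnb2, Ube2c, Cenpa, Prc1 and Nusap1, and Nek2 lost its call (-1.14, adjusted p = 0.0528).

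Ccnb2 read 12.22, 12.14, 12.01 and 12.25 in WT thymi, 12.11, 12.34, 12.10 and 11.96 in HT thymi and 12.45, 12.37, 12.06 and 11.99 in KO thymi. In WT tumors it read 11.70, 11.03, 12.38, 10.54 and 11.24. In HT tumors the lowest, median and highest values were 9.79, 10.12 and 12.56, and in KO tumors 8.34, 10.01 and 12.13. It was below every thymus in 15 of 19 tumors, of all 3 genotypes, and above every thymus in 1 tumor. The fitted difference was -1.33 (SE 0.38, limma adjusted p = 0.0116), a 2.52-fold fall.

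Ube2c, whose product hands ubiquitin to the anaphase-promoting complex, read 12.31, 12.26, 12.07 and 12.07 in WT thymi, 12.03, 12.49, 12.13 and 11.90 in HT thymi and 11.84 to 12.26 in KO thymi. The WT tumors read 11.47, 10.98, 12.68, 10.84 and 11.74. The HT tumors ran from 9.20 through a median of 10.01 to 12.44, and the KO tumors from 8.48 through 9.72 to 11.91. As with Ccnb2, 15 tumors lay below all thymi and 1 above. The difference was -1.36 (SE 0.39, adjusted p = 0.0127).

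Cenpa, the histone that marks centromeres, read 11.58, 11.66, 11.49 and 11.75 in WT thymi, 11.60, 11.82, 11.60 and 11.50 in HT thymi and 11.63, 11.77, 11.51 and 11.44 in KO thymi. In WT tumors it read 11.41, 10.53, 12.16, 10.71 and 11.35, in HT tumors 9.66 to 12.16 with a median of 10.45, and in KO tumors 9.97 to 11.41 with a median of 10.26. It was below every thymus in 16 tumors and above in 2. The difference was -0.81 (SE 0.24, adjusted p = 0.0159).

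Prc1 fell by 0.96 (SE 0.33, adjusted p = 0.0327), Nusap1 by 1.01 (SE 0.35, adjusted p = 0.0341) and Nek2 by 1.19 (SE 0.41, adjusted p = 0.0361). None of the 6 passed once the 3'/5' ratio was added to the limma fit as a covariate (0 members called). The differences were then -0.86 for Ccnb2 (adjusted p = 0.0844), -0.78 for Ube2c (0.0911), -0.59 for Cenpa (0.094), -0.92 for Prc1 (0.0765), -0.66 for Nusap1 (0.192) and -0.63 for Nek2 (0.246), and the median over the members was -0.46. Prc1 thus lost its call with its difference about the same. With the mean of a gene's probe sets Cenpa was at -0.34 (adjusted p = 0.063) and Nusap1 at -0.58 (0.0593), both without a call, and Nek2 at -0.60 (0.0239). Over all alternatives the adjusted p ran from 0.000153 to 0.0844 for Ccnb2 and from 0.000168 to 0.0911 for Ube2c. The count was 2 without the tumor HT 04, 10 without KO 02, and 3 without any of the female thymi WT F_01, WT F_02, HT F_02, KO F_01 and KO F_02.

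**Figure D2:**
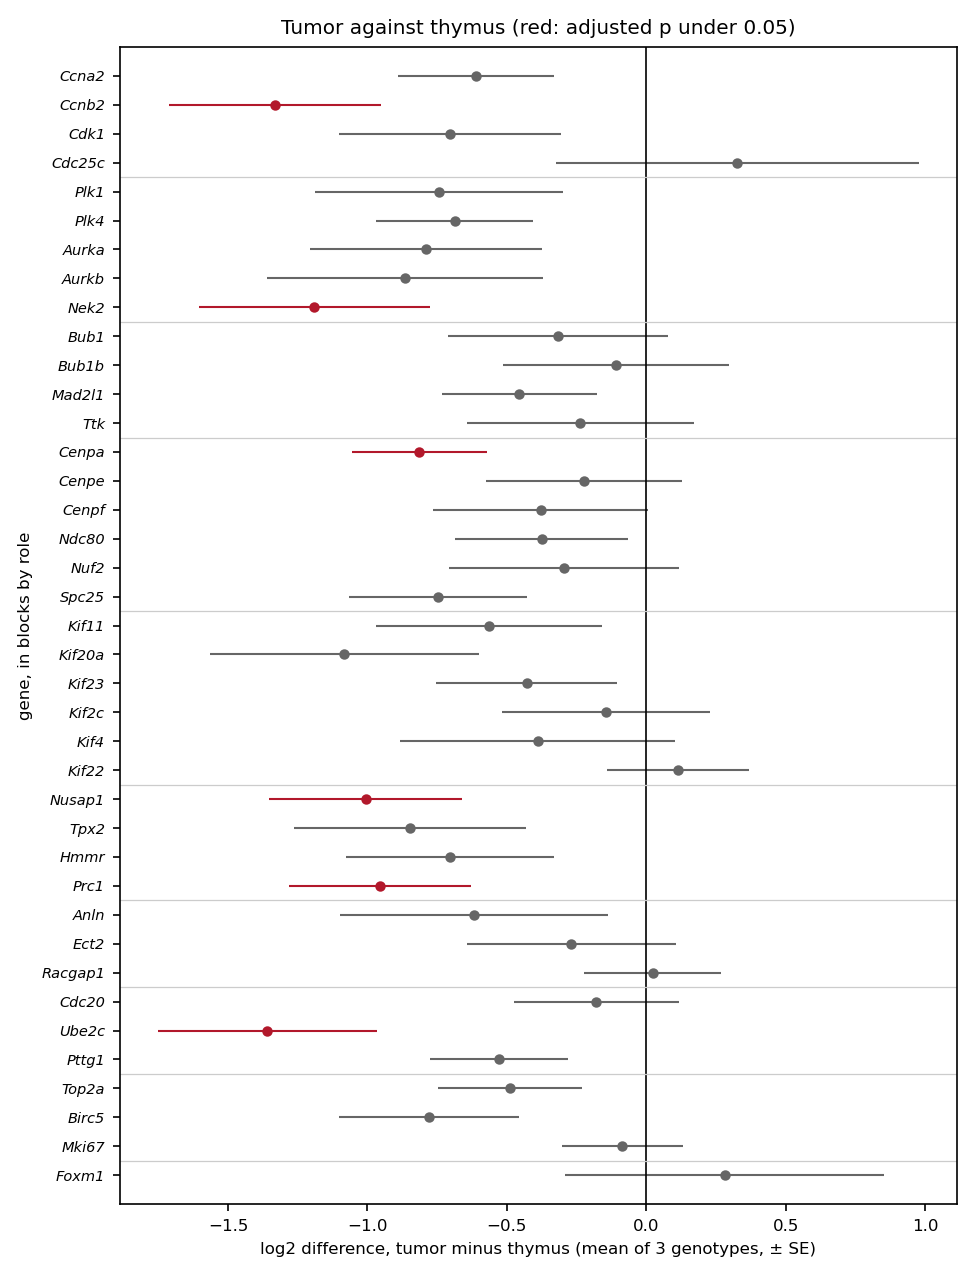
Log2 difference between tumor and thymus (mean of the 3 genotypes' differences) with its SE for the 39 members, in blocks by role; red marks an adjusted p under 0.05 in limma. The 6 genes in red all lie below 0, from Cenpa at -0.81 to Ube2c at -1.36, while Racgap1, Kif22, Foxm1 and Cdc25c lie above 0.

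By role the differences are given as descriptions, since no difference between roles was tested. Among cyclins and CDK1, Ccna2 had a difference of -0.61 (SE 0.28, adjusted p = 0.111) and Cdk1 one of -0.70 (SE 0.40, adjusted p = 0.199). Cdc25c had the highest difference of all members, 0.33 (SE 0.65, adjusted p = 0.742). It read 6.58 to 7.79 in WT thymi, 6.97 to 7.72 in HT thymi and 6.84 to 7.76 in KO thymi, against 8.19, 8.73, 8.14, 9.71 and 8.08 in WT tumors, 4.51 to 9.98 in HT tumors and 3.93 to 9.40 in KO tumors. All 5 WT tumors were thus above every thymus, while HT and KO tumors lay on both sides.

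The mitotic kinases had a median difference of -0.79, with Aurka, which matures the spindle poles, at -0.79 (SE 0.42), Aurkb, the kinase of the chromosomal passenger complex, at -0.87 (SE 0.50) and Plk1 at -0.74 (SE 0.44). The 4 spindle assembly and microtubule-binding genes had a median of -0.90, and Tpx2, the activator of Aurora A, and Hmmr differed by -0.85 (SE 0.42) and -0.70 (SE 0.37). The spindle checkpoint genes had a median of -0.28 from Mad2l1 at -0.46 to Bub1b at -0.11. Kinetochore genes had a median of -0.38 and kinesin motors one of -0.41, from Kif20a at -1.08 (SE 0.48, adjusted p = 0.0998) to Kif22 at 0.11. Outside those named as fallen, none of these passed.

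Racgap1, which with Kif23 forms the centralspindlin complex of the cleavage furrow, had the smallest difference, 0.02 (SE 0.24, adjusted p = 0.957). Its thymi read 9.96 to 10.63. Its tumors read 11.40, 10.46, 11.14, 10.92 and 10.61 in WT, 8.83 to 11.11 in HT and 9.42 to 11.32 in KO. They lay below all thymi in 7 tumors and above in 8, so the average hides tumors on both sides. Probe sets disagreed here: a dimmer probe set of Racgap1 had a difference of -0.68. Of 27 members with more than 1 probe set, 16 had at least 1 whose sign differed from that of the probe set used, and of the 49 probe sets not used, 30 shared the sign of the one used. Cdc20, Kif2c, Kif22, Aurkb and Cdc25c were read by probe sets of the x_at type, some of whose probes match other transcripts.

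Within genotypes no member passed. In WT, 0 of 39 were called against 6.87% of genes, with 0 members at an unadjusted p under 0.05 and a median of 0.12. In HT, 0 were called against 3.53%, with 3 at p under 0.05 and a median of -0.63. In KO, 0 were called against 4.94%, with 14 at p under 0.05, a median of -0.89 and a negative difference in all 39. At that unadjusted p the limma contrasts within WT, HT and KO held 3015, 2086 and 2708 of 13644 genes. The smallest p values were those of Pttg1 in WT (-0.86, SE 0.42, limma adjusted p = 0.234), Cenpa in HT (-0.93, SE 0.38, adjusted p = 0.216) and Ube2c in KO (-1.94, SE 0.61, adjusted p = 0.0663). The KO count was 1 without HT 07, 2 without KO 01, and 3 without KO 02 or without KO 05. The differences between genotypes were tested by interaction terms, and 0 members and 0.0% of all genes passed for HT minus WT and for KO minus WT. At p under 0.05 these fits held 142 and 111 of 13644 genes, and no member. The medians of those terms over the members were -0.70 and -1.09. Foxm1 had the smallest p for HT minus WT (-1.66, SE 1.27, adjusted p = 0.999), ahead of Kif2c at -1.03 (SE 0.83). For KO minus WT these were Anln at -1.81 (SE 1.06, adjusted p = 1.0) and Top2a at -0.96 (SE 0.57).

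The averages hide a split among tumors. The mean of the 39 members lay between 10.62 and 10.99 in the thymi. In the tumors it was 10.86, 10.69, 11.30, 11.02 and 10.96 in WT, ran from 8.87 through 10.58 to 11.22 in HT and from 7.83 through 10.20 to 10.96 in KO. The low values were 7.83 in KO 06, 8.75 in KO 04, 8.87 in HT 01, 9.18 in HT 03 and 9.21 in HT 04, with the next lowest at 9.98 in KO 07. In all, 8 tumors had a mean below every thymus and 4 had a mean above. No WT tumor was among the 5 lowest, and a test of that split was not made, since these tumors are picked out by the values themselves.

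In KO 06, KO 04, HT 01 and HT 03, 38 of the 39 members were below every thymus, against 34.2%, 31.2%, 32.2% and 33.1% of all genes. The member that was not is Pttg1. In HT 04 all 39 were below every thymus, against 29.0% of genes, and in KO 07 31 were, against 30.3%. At the other end, 27 members were above every thymus in WT 03 (27.0% of genes), 25 in HT 06 (27.0%) and 22 in HT 02 (21.8%). The same 38 members were below every thymus in all of KO 06, KO 04, HT 01, HT 03 and HT 04, a pattern held by 9.44% of all genes. Those tumors have the lowest member means, so low members there follow in part from how the tumors were picked.

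In the low tumors the members lay far from the thymus mean. In KO 06 the median shift was -3.21, and Kif20a, the motor that carries passenger proteins to the midzone, had the lowest at -5.25. In KO 04 the median was -2.19 and the lowest member was Anln, the cleavage furrow scaffold anillin, at -3.67. In HT 01 the median was -2.10, with Kif4, a chromosome-bound motor, at -2.99, and in HT 03 it was -1.75, with Cdc25c at -2.78. Mki67, the source of the Ki-67 proliferation antigen, read 12.14, 12.66, 12.28, 12.46 and 12.42 in KO 06, KO 04, HT 01, HT 03 and HT 04, against 13.11 to 13.64 in the thymi. These arrays hold RNA of many cells together, so fewer dividing cells and less of these RNAs per cell cannot be told apart.

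**Figure D3:**
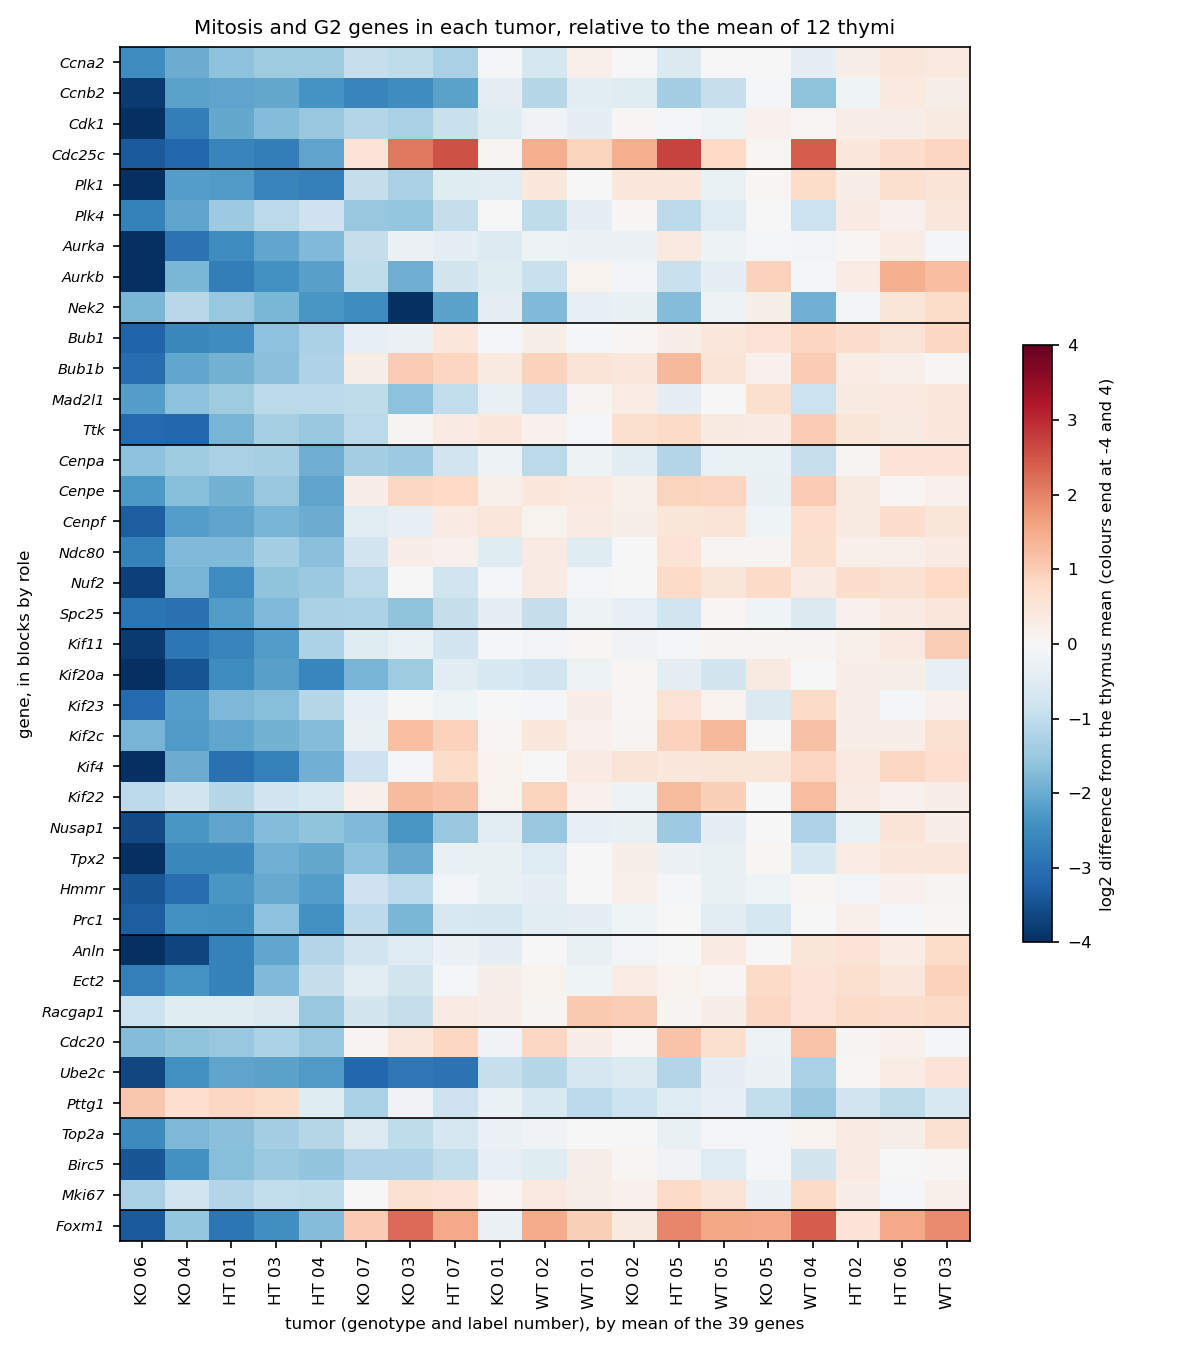
Log2 difference of each of the 39 members (rows, in blocks by role) from its mean in 12 thymi, in each of 19 tumors (columns, ordered by the mean of the members); blue is below and red above. The 5 columns on the left, KO 06 to HT 04, are blue for nearly all members, Pttg1 is red in the first 4 of them, and Foxm1 and Cdc25c are red in most others.

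Over tumors, the members moved against the B cell and plasma cell markers. In a limma fit of the 19 tumors with genotype and sex, 33 of 39 members passed for a slope on the marker mean, 1 higher and 32 lower. All genes gave 20.2% (11.1% higher and 9.15% lower). The median slope was -0.31 log2 units per unit of the marker mean, beside -0.01 over all genes. The slopes rest on KO 06, KO 04, HT 01 and HT 03: without these 4 tumors, 0 members passed and the median slope was -0.09. Leaving out any 1 tumor left 24 to 37 members called.

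Ect2, the exchange factor that starts the contractile ring, had the smallest p, with a slope of -0.42 (SE 0.06, adjusted p = 6.65e-05). It read 10.05, 10.35, 11.15, 10.77 and 10.27 in WT tumors, 7.52 to 10.84 with a median of 10.13 in HT tumors and 7.50 to 10.97 with a median of 9.77 in KO tumors, against 9.97 to 10.38 in thymi. The values in KO 06, KO 04, HT 01 and HT 03 were 7.50, 7.81, 7.52 and 8.44, the 4 lowest of all arrays.

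Kif11 had a slope of -0.44 (SE 0.07, adjusted p = 0.000267). It read 11.20, 11.02, 12.08, 11.24 and 11.24 in WT tumors, 8.47 to 11.50 with a median of 10.36 in HT and 7.29 to 11.24 with a median of 10.83 in KO. Bub1, a kinase of the spindle checkpoint, had a slope of -0.42 (SE 0.07, adjusted p = 0.000554), reading 10.86, 11.12, 11.71, 11.75 and 11.32 in WT tumors, 8.39 to 11.58 in HT and 7.68 to 11.46 in KO. In both genes KO 06 was lowest. Without the 4 tumors the slopes were -0.20 for Ect2 (adjusted p = 0.198), -0.13 for Kif11 (adjusted p = 0.345) and -0.07 for Bub1 (adjusted p = 0.659); the lowest adjusted p over the alternatives were 5.39e-07, 2.13e-06 and 3.45e-06. The members whose slope did not pass were Ube2c, Cenpa, Kif22, Nek2, Mki67 and Racgap1.

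Foxm1, the transcription factor that drives many of the other members in G2, had the steepest slope, -0.51 (SE 0.13, adjusted p = 0.010). It read 7.85, 7.97, 7.13 and 7.35 in WT thymi, 7.25, 7.47, 7.74 and 7.25 in HT thymi and 7.88, 7.72, 7.63 and 6.72 in KO thymi. In WT tumors it read 8.44, 8.97, 9.38, 9.93 and 9.06, all above every thymus. In HT tumors it ran from 4.62 through 8.06 to 9.46 and in KO tumors from 4.14 through 7.86 to 9.75. It was above every thymus in 12 tumors and below in 5, the 5 of lowest member mean. Its average difference between tumor and thymus, 0.28 (SE 0.57, adjusted p = 0.748), therefore sums opposite shifts.

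**Figure D4:**
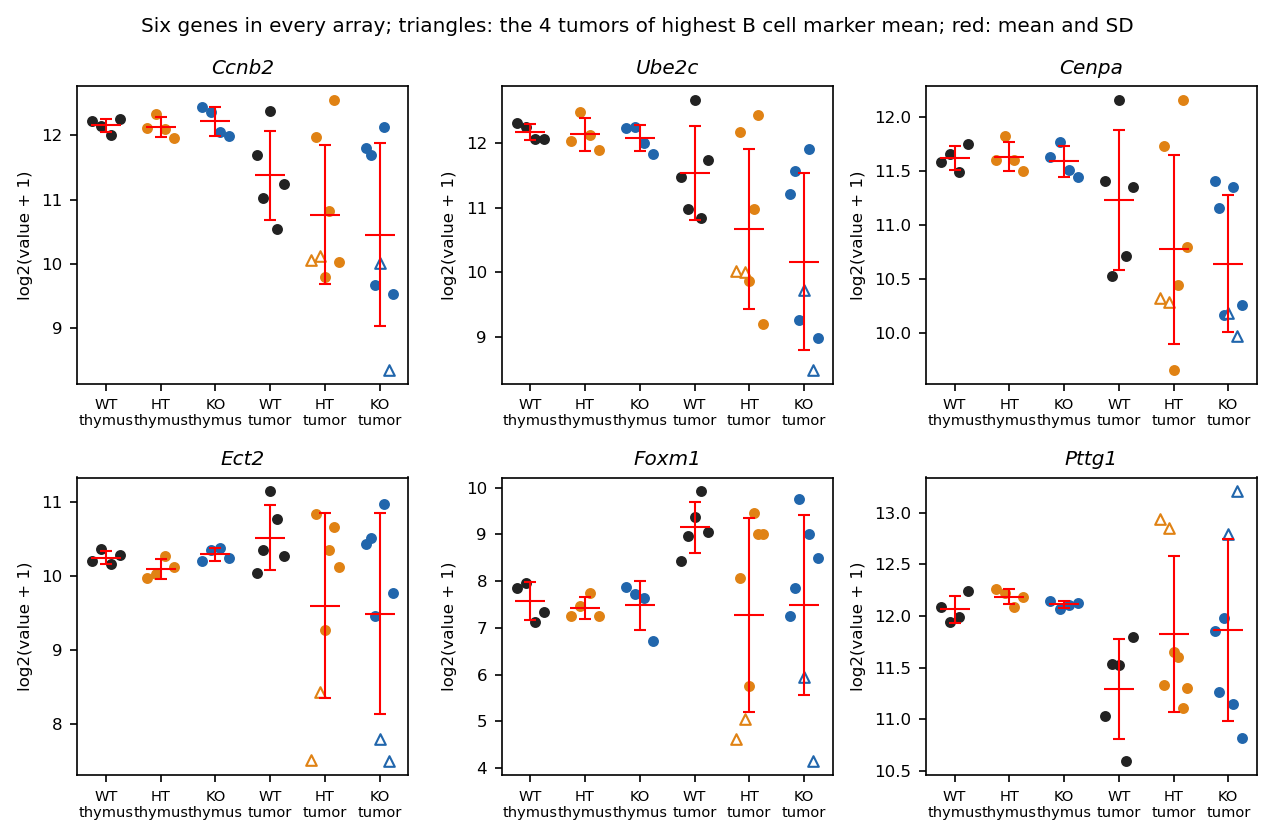
Log2(value + 1) of 6 members in every array, by genotype and tissue; triangles are the 4 tumors of highest B cell marker mean, red bars the group mean and SD. In 5 of the panels the triangles lie below all thymi, and for Pttg1 they lie above all thymi.

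Pttg1, the source of securin, which holds separase inactive until anaphase, was the exception. It read 12.09, 11.94, 11.99 and 12.24 in WT thymi, 12.26, 12.22, 12.09 and 12.18 in HT thymi and 12.14, 12.07, 12.11 and 12.13 in KO thymi. In WT tumors it read 11.03, 11.53, 11.52, 10.59 and 11.80. It read 12.94 in HT 01, 12.85 in HT 03, 12.79 in KO 04 and 13.21 in KO 06, above every thymus, whereas 14 of the other 15 tumors were below every thymus. Its slope on the B cell marker mean was 0.24 (SE 0.05, adjusted p = 0.00254), the only positive slope among the members. The same pattern was held by 102 of the 13644 genes tested. Without the 4 tumors the slope was 0.05 (adjusted p = 0.721), and over the alternatives the adjusted p ran from 4.94e-05 to 0.721. Its 2 dimmer probe sets were also lower in most of the other 15 tumors, with median shifts of -1.55 and -1.64. In the 4 tumors they were -0.95 to 0.75 and 0.13 to 1.63 from the thymus mean, so the rise over thymus was not shared by every probe set.

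Of the marker means of other cells, only that of the neutrophil markers lay apart between these tumors and the other tumors. The other ranges overlapped. In KO 06, KO 04, HT 01 and HT 03 the mean of the neutrophil markers (8 of 9 measured) was 6.94 to 8.39, against 3.67 to 6.10 in the other 15 tumors and 4.97 to 7.91 in thymi. That of the macrophage markers (9 of 9) was 8.58 to 10.85, against 6.91 to 9.51 and 5.88 to 8.09. That of the double-positive thymocyte markers was 7.34 to 10.54, against 10.17 to 12.04 in the other tumors. That of the T cell receptor and CD3 genes (6 of 7 measured) was 11.14 in KO 06 and 12.17 to 12.33 in KO 04, HT 01 and HT 03. It was 11.67 to 12.97 in the other tumors and 12.98 to 13.22 in thymi. That of the fibroblast markers (8 of 8) was 4.82 to 5.85, against 5.82 to 9.22 in the other tumors and 3.94 to 5.77 in thymi, and that of the thymic epithelium markers (9 of 9) was 4.49 to 4.91, against 4.34 to 5.49 and 4.81 to 7.81. Between tumor and thymus over all arrays, 6 of 8 fibroblast markers were higher, and 6 of 10 double-positive thymocyte markers, 5 of 6 T cell receptor and CD3 genes and 4 of 7 tested thymic epithelium markers were lower. The 3'/5' ratios of the 4 tumors were 2.05, 1.07, 0.59 and 0.82. The part of the mix of cells in the members' shift was not tested.

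HT 04, the only male HT tumor, was low without these markers. Its B cell marker mean was 5.47, the lowest of all arrays, and 7 of the 10 markers were below every thymus and none was above. Its double-positive thymocyte marker mean was 12.02, with 8 of those 10 markers below every thymus and 2 above. Its 3'/5' ratio was 0.71. Its members were shifted from the thymus mean by -0.47 (Pttg1) to -2.74 (Plk1), with a median of -1.59. After Plk1 the lowest were Kif20a (-2.62), Prc1 (-2.41), Ccnb2 (-2.37) and Nek2 (-2.33), and nearer to the thymi were Top2a (-1.15), Mki67 (-1.03) and Plk4 (-0.83). DNA replication genes shifted less there: 19 of 38 were below every thymus, their median shift was -0.25, and their mean of 10.63 lay next to the lowest thymus at 10.65. In KO 06, KO 04, HT 01 and HT 03, 32, 33, 36 and 35 of those 38 genes were below every thymus, with median shifts of -1.89, -1.14, -1.20 and -0.96. B-Myb, encoded by Mybl2, was shifted by -0.46 in HT 04 and by -2.93, -1.12, -1.88 and -2.15 in KO 06, KO 04, HT 01 and HT 03, and lay above the thymus mean in each of the other tumors. KO 07, with a B cell marker mean of 7.96, had a median member shift of -0.92. There 19 of 38 replication genes were below every thymus and 15 above, with a median shift of -0.24. In KO 03 and HT 07 the median shifts were -0.75 and -0.40 for the members and 0.12 and 0.14 for replication genes. The 3'/5' ratios of KO 07, KO 03 and HT 07 were 3.17, 1.91 and 4.87. HT 04 is 1 sample, and this contrast between the lists was not tested.

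**Figure D5:**
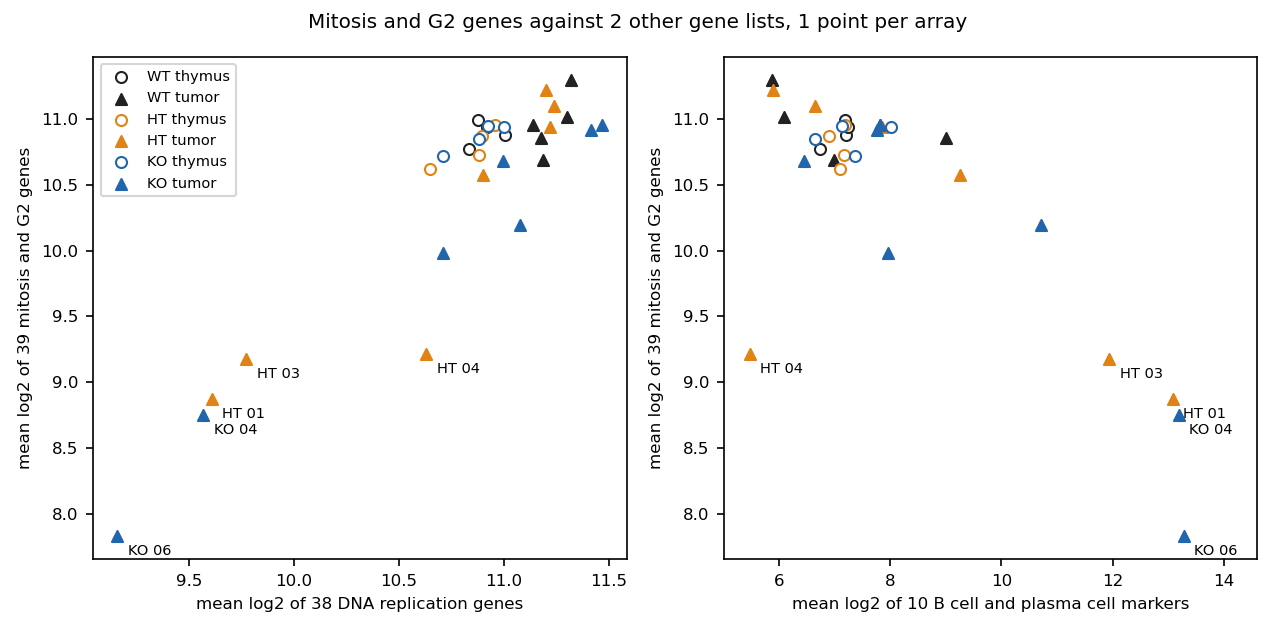
Mean log2 value of the 39 mitosis and G2 genes in each array against the mean of 38 DNA replication genes (left) and of 10 B cell and plasma cell markers (right), 1 point per array, circles for thymi and triangles for tumors. HT 04 has a mitotic mean of 9.21 at a replication mean of 10.63 and the lowest B cell marker mean, while the 4 other labelled tumors are low on the replication axis and high on the marker axis.

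How many members went with the ratio of 3' to 5' signal depended on the tumors in the fit. In the limma fit on the 3'/5' ratio over the 19 tumors, 2 of 39 members passed, 0 higher and 2 lower, against 23.5% of genes (14.4% higher and 9.12% lower). They were Ube2c (-0.67 per unit of the log2 ratio, SE 0.18, adjusted p = 0.0148) and Nek2 (-0.65, SE 0.20, adjusted p = 0.0307). Nek2 read 9.57, 8.14, 10.65, 8.01 and 9.71 in WT tumors, 7.59 to 10.41 in HT and 5.88 to 10.14 in KO, and its lowest value was in KO 03, whose ratio was 1.91. Ube2c was lowest of the HT tumors in HT 07, whose ratio of 4.87 was the highest of all arrays. Cdc25c had the slope of largest size, 0.67 (SE 0.37, adjusted p = 0.211), and Aurka the slope nearest 0, -0.01 (SE 0.26, adjusted p = 0.984). Aurka read 10.03, 10.15 and 10.11 in WT 02, WT 03 and WT 04, the remaining WT tumors reading no higher than 10.01, 7.76 to 10.63 in HT and 5.85 to 10.18 in KO. Without the 4 tumors of highest B cell marker mean 10 members passed, all lower. For that refit, too, the share of all genes is not given here. The count was 6 without HT 07, and 1 without WT 03, WT 04, HT 02, HT 06, KO 05 or KO 07. The part of RNA integrity in their fall was not tested beyond the covariate fit above.

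Between tumor genotypes no member and no gene passed. In the fit of the 19 tumors, 0 of 39 members and 0.0% of genes were called in each of the 3 pairs. Between KO and WT, HT and WT, and KO and HT, at an unadjusted p under 0.05, limma held 462, 382 and 150 genes, and 2, 0 and 0 members. The median over the members was -1.15 (KO minus WT), -0.80 (HT minus WT) and -0.24 (KO minus HT), with 38, 38 and 34 of 39 members negative. The comparisons of KO and of HT with WT share the 5 WT tumors. Top2a, the topoisomerase that untangles chromosomes, had the smallest p for KO against WT (-1.04, SE 0.46, adjusted p = 0.871). It read 13.33, 13.16, 13.92, 13.47 and 13.26 in WT tumors, 10.75 to 13.28 with a median of 12.75 in KO and 11.64 to 13.64 with a median of 12.65 in HT. The groups overlapped. Anln followed at -1.84 (SE 0.85, adjusted p = 0.871), with 10.25, 10.57, 11.28, 11.05 and 10.87 in WT and 5.47 to 10.56 in KO. For HT against WT the smallest p were those of Foxm1 (-1.78, SE 1.01, adjusted p = 0.932) and Top2a (-0.80, SE 0.46, adjusted p = 0.932). For KO against HT they were those of Cdk1 (-0.63, SE 0.63, adjusted p = 1.0) and Anln (-0.75, SE 0.76). Cdk1 read 7.14 to 11.92 in KO tumors and 9.69 to 12.02 in HT.

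The spread of the members was small in thymi and wide in tumors. Their median SD was 0.15 over the 12 thymi, below the 0.19 of all genes, and 1.17 over the 19 tumors, above the 0.65 of all genes. Without KO 06, KO 04, HT 01 and HT 03 it was 0.66, beside 0.57. A member spanned 1.41-fold from lowest to highest thymus and 15.8-fold over the tumors, as medians. Aurkb spanned 74.2-fold over the tumors and Mki67 4.3-fold.

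Most of the members moved together. Across pairs of members, the median Pearson r was 0.57 over the 12 thymi, 0.85 over the 19 tumors and 0.68 over the 15 tumors without KO 06, KO 04, HT 01 and HT 03, where 88.1% of 741 pairs were above 0. These values are descriptions, since the arrays share genotypes and sexes and the tumors fall into clusters. The r over pairs of all genes was not computed. Hmmr (r of 0.94) and Plk1 (0.93) followed the mean of the other members most closely over the 15 tumors. Pttg1 (-0.22), Kif22 (0.25) and Cdc25c (0.42) followed it least. Over the 12 thymi 83.8% of pairs were above 0. There the members with the lowest r to the others' mean were Pttg1 (-0.15), Mad2l1 (-0.05), Spc25 (0.1) and Hmmr (0.17).

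The genes outside the list that were most like the mean of the members over the 19 tumors were Cdca3, Depdc1a, Ticrr, Ccnf, Aspm, Tk1, Sgo1 and Ncapg2, with r of 0.962 to 0.979, and 0.869 to 0.925 over the 15 tumors. Over the 12 thymi they were Rrm1, Cep55, Tacc3, Stil, Clspn, Neurl1b, Cdca3 and Spag5, with r of 0.87 to 0.91. Cdca3, which helps switch on mitotic entry, was in both sets.

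Other genes of the division program were read from fixed lists. Of 75 other mitosis genes 74 were tested; between tumor and thymus 0 were higher and 7 lower, with a median of -0.27. These counts and those that follow stand beside the 11.9% higher and 12.8% lower of all genes tested. The condensin subunit gene Smc4 (-0.67, SE 0.09, adjusted p = 4.64e-06), Mad1l1 (-2.16, SE 0.30, adjusted p = 1.01e-05), Hmgb2 (-1.06, SE 0.26) and Bub3 (-0.49, SE 0.12) were those of smallest p. On the B cell marker slope 0 were higher and 56 lower, where 9.15% of all genes were lower. Of 38 DNA replication genes 2 were higher (Pold1 and Rfc2) and 2 lower (Pcna and Slbp) between tumor and thymus, with a median of -0.07, and 22 were lower on the B cell marker slope.

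Among the regulators that act on these promoters, 12 MuvB, B-Myb and DREAM genes held 0 higher and 2 lower in tumors, Rbl2, the pocket protein p130 of the DREAM complex, at -1.14 (SE 0.23, adjusted p = 0.000871) and E2f4 at -0.94 (SE 0.25, adjusted p = 0.00807). Of 7 other E2F and pocket genes 2 were higher and 3 lower, E2f1 at 1.10 (SE 0.31) with the repressor E2f7 among the lower (adjusted p = 0.000113). Of 11 tested CDK inhibitors and antiproliferative genes 1 was higher and 5 lower, led by Ccng2 at -0.93 (SE 0.11) and Btg2 at -1.28 (SE 0.22). Of 7 G1 cyclins and CDKs, Ccnd1, cyclin D1, was higher by 4.21 (SE 0.60, adjusted p = 1.14e-05), and Ccnd3 (-1.29, SE 0.28) and Cdk2 (-0.58, SE 0.18) were lower. Ccnd2 had a positive slope on the B cell markers, 0.74 (SE 0.11, adjusted p = 0.000136). Of 14 anaphase-promoting complex genes 0 passed between tumor and thymus in limma, and 2 had an unadjusted p under 0.05, Fzr1 (-0.60, SE 0.28, adjusted p = 0.12) and Cdc27 (0.28, SE 0.14, adjusted p = 0.132). Over all genes, 5110 of 13644 had such an unadjusted p. Over the 19 tumors the mean of the members had an r of 0.95 with that of the replication genes and 0.32 with that of the G1 genes. Over the 15 tumors these were 0.85 and -0.16. With the mean of the anaphase-promoting complex genes the r was 0.94 over the 19 tumors and 0.78 over the 15.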

How the data were processed

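The deposited table gives each probe set a linear intensity on each array, computed by the authors with GCRMA, per the submitters' processing notes, and the sources used here give no version of it. All arrays had the same median intensity. The labelling protocol in the labels names a whole-transcript assay, while this array reads 3' ends.

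The deposited intensities were turned to log2(value + 1). Of 45101 probe sets, 34957 named 1 gene, 932 several and 9211 none, and 1 held no value. Annotation symbols were updated through a RefSeq table (GRCm38.p6). Each gene took its brightest probe set, and genes with a mean above the 25th percentile (3.65) were tested, 13644 of 18193. The 40 members, the other lists and the rules were chosen with earlier results of these data known. Fits were made in R 4.3.3 with lmFit and eBayes of limma 3.58.1 (sex as covariate, Benjamini-Hochberg over all genes tested, adjusted p under 0.05) and were tested on simulated data. The number of arrays limits the precision.

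Values per array are given for the 3 called members of smallest p in each direction, those of largest and smallest difference, or the 2 of smallest p where none was called; others named were chosen after their values were seen. Alternatives were the pseudocount, the filter, the probe set rule, sex, scaling, array weights, the 3'/5' ratio, leaving out tumors rich in B cell markers or each array, and a replicate block. Same-named thymi of different genotypes deviated together from their group means (r of 0.39 to 0.58 in 12 pairs). The names hold the sex: same-sex thymi of other names had a median r of 0.44, and within a sex the differences between numbers had r of -0.06 to 0.20. No source says what a number shares. No column was left unmapped. Tumor numbers did not pair (median r of -0.19 in 17 pairs).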

Additional observations from a re-analysis of the deposited data

Results flagged for a closer look

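In 240 groups of 4 to 7 arrays (each member, and the members' mean, in each of the 6 groups), 3 arrays stood far from the others of their group, 1.25% of the groups, where chance gives about 1 in 20. Nusap1 was high in the WT thymus M_02, at 12.72, 0.35 above the next. Spc25 was low in the KO thymus F_01, at 11.09, 0.27 below the next. Kif11 was high in the tumor WT 03, at 12.08, 0.84 above the next. WT 03 also had the highest mean of the members, 11.30. No member moved one way in every tumor of a genotype and the other way in every tumor of another.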

How the results depend on the processing

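Tumor against thymus: 6 members were called, 10 without the sex term, 17 with array weights and 0 once the 3'/5' ratio was a covariate, and 2 to 10 with 1 array left out. Within genotypes the count of 0 became 2 in HT, 4 in KO and 1 in WT with array weights, 1 in HT and 1 in WT without the 4 tumors of highest B cell marker mean, and 1 in KO without the sex term; leaving out an array gave 0 to 3 in KO. For the 3'/5' slope the count of 2 became 1 with the mean of a gene's probe sets, 7 with array weights and 10 without the 4 tumors, and 1 to 6 with 1 tumor left out, where the median slope ran from -0.301 to 0.026. For the B cell marker slope the 33 calls became 0, and the median -0.308 became -0.094, without the 4 tumors. The median difference of tumor vs thymus between KO and WT moved from -1.086 to -0.316 without them. No named call changed sign under any alternative run, and the cause of these changes was not tested. Shares of all genes under the alternatives are not given here, so these counts have no background beside them. With the replicate block, 0 members were called in each thymus and tumor genotype comparison. The tumor medians were then -1.12 for KO against WT and -0.75 for HT against WT. The block was fitted to these comparisons only, where no member was called without it either. Nusap1, Nek2 and Prc1 lost their tumor against thymus call without 9, 9 and 6 of 31 arrays and Cenpa without 1, HT 04. Cenpa and Nusap1 also lost it with the mean of a gene's probe sets, and Nek2 without the 4 tumors, where 7 members were called, 1 of them higher.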
